A study of Homo sapiens with 12 samples.

Results

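The genes described here encode the factors that start protein synthesis and lengthen the growing chain. They were taken as all genes annotated to the array's probes whose symbol begins with EIF1, EIF2B, EIF2S, EIF3, EIF4, EIF5, EIF6 or EEF, with pseudogenes and antisense RNAs left out. This rule found 60 genes on 101 probes, out of 20046 named genes on the array. Of the 60, 57 gave values and were tested among 18223 features, of which 12349 were named genes and 5874 were probes without a gene name. EEFSEC and EIF4E3 did not pass the background filter, and EIF1AY, a Y-linked gene, is not reported.

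RNA was hybridised to Illumina bead arrays from PANC-1 cells, a human line derived from a pancreatic ductal adenocarcinoma. Every sample carried a stably expressed form of E47, a basic helix-loop-helix transcription factor encoded by TCF3, whose activity is induced by tamoxifen. There were 3 groups of 4 arrays each, without tamoxifen, with tamoxifen at 1 µM and with tamoxifen at 4 µM, the drug being given for 48 h. The comparisons ask how these genes respond when E47 activity is induced at 2 doses. No group of cells lacking the inducible E47 was given tamoxifen, so effects of the drug itself and of E47 cannot be told apart. The labels name no vehicle and no culture time for the untreated cells, and they do not say whether the line is 1 clone or whether the replicates are separate cultures. The p-values therefore rest on a spread among samples that may be purely technical. The lower dose is 1 µM in the titles, but the treatment text gives it as a volume.

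The deposited intensities had been equalised between arrays, with a median of 120 on each and 20880 to 20910 probes above background. A shift shared by most transcripts would not be visible in such values, and each result below is relative to the rest of the array. Arrays of 1 group correlated at 0.9906 or more across probes, and treated with untreated arrays at 0.9571 or less. Among markers of ductal epithelium, 7 of 8 were detected, CFTR being the exception. Of 10 markers of other cell types, PTPRC, CD3E, PECAM1, VWF and HBB were above background on no array, while CD68, ALB, COL1A1, CD79A and DCN were detected.

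Translation begins when eIF2, loaded with GTP and the initiator tRNA, joins the small ribosomal subunit together with eIF1, eIF1A, eIF3 and eIF5. The eIF4 proteins bind the cap of the mRNA, unwind its leader and bring it to this complex, which scans for a start codon. Recognition of the codon makes eIF2 hydrolyse its GTP with the help of eIF5, and eIF2B then reloads eIF2 with GTP. After eIF5B joins the large subunit, eEF1A delivers each aminoacyl-tRNA and eEF2 moves the ribosome along. Secretory pancreas cells make much protein, and in many tumours the cap-binding step is controlled through mTORC1 and the eIF4E-binding proteins.

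Many mRNAs of this machinery begin with a terminal oligopyrimidine (TOP) motif, a cytosine at the first base followed by an unbroken run of pyrimidines, through which mTORC1 controls their translation. RefSeq start sites on GRCh38.p14 were available for 44 of the 57 tested genes. Counting a run of at least 5 bases, 10 of the 44 (22.7%) had such a start at 1 or more annotated sites, against 5.14% of 27305 genes. They were EEF1A1, EEF1B2, EEF2, EIF2S3, EIF3D, EIF3F, EIF3K, EIF3M, EIF4A2 and EIF4B. The stretches below, from position -20 to 19 with the start at 0, are shown because genes that share this start differed in their response. Capitals mark the pyrimidine run that begins at the annotated start.
EEF1A1, chr6:73521013-73521052, minus strand: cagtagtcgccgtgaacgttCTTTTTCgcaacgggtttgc
EEF2, chr19:3985444-3985483, minus strand: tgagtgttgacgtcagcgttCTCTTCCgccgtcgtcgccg
EIF3K, chr19:38619168-38619207, plus strand: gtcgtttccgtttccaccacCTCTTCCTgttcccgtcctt
EIF3M, chr11:32583811-32583850, plus strand: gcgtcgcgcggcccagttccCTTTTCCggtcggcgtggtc
EIF4A2, chr3:186783557-186783596, plus strand: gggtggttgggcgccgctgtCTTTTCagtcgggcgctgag
EIF2S3, chrX:24054936-24054975, plus strand: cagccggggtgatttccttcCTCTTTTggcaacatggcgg

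E47 belongs to the proteins that bind E-boxes, with the letters CANNTG, and CAGGTG is a form bound by E-proteins. In windows from 250 bases before to 50 bases after the start, CANNTG was present in 31 of the 44 genes (70.5%) and in 73.1% of all 27305 genes. CAGGTG, read on both strands and contained in CANNTG, was present in 7 of the 44 (15.9%) and in 24.1% of all genes. All 5 genes that rose at 4 µM had a window, but only 8 of the 14 that fell did. EEF2KMT, EEF1A2, EEF1AKMT1, EEF1D, EIF2S2 and EIF3G fell and had none. Among genes with a window, CANNTG was present in 4 of 5 that rose, 7 of 8 that fell and 20 of 31 not called. The 7 genes with CAGGTG were all among the 31. With so few genes these counts are a description. The palindrome CACGTG, also contained in CANNTG and best known as a site of MYC and related proteins, was present in 12 of the 44 (27.3%) and in 8.77% of all genes. By the same calls, CACGTG was present in 2 of 5 genes that rose, 2 of 8 that fell and 8 of 31 that were not called. EIF5 is shown as a gene that fell at both doses and holds neighbouring E-box letters at the second of its 2 annotated starts (the window of the first has none), and EIF1B as the gene with the largest rise at 4 µM. Capitals mark each CANNTG match in EIF5 and the CACGTG in EIF1B. These matches describe letters in a window and were not tested as binding sites.
EIF5, chr14:103334788-103334857, plus strand: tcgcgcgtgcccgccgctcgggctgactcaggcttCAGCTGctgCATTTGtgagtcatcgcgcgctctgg
EIF1B, chr3:40309617-40309686, plus strand: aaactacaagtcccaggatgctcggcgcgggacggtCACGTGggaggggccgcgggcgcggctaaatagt

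At 4 µM tamoxifen, 14 of the 57 genes fell and 5 rose against untreated cells, and most changes were small. EEF2KMT, EEF1AKMT2, EEF1A2 and EIF5 fell most, and EIF1B and EIF4A2 rose most. The share called, 33.3%, stood beside 42.6% of all features tested. Of the 57 genes, 24.6% fell and 8.77% rose, against 21.1% and 21.5% of all features. The median log2 fold change was -0.09 for these genes and -0.03 for all features, and the range over the genes was -1.09 to 0.69. A log2 change larger than 1 in either direction was seen in 1 of the 57 genes (1.75%) and in 8.43% of all features. All values are log2 signals, a gene was called when its Benjamini-Hochberg adjusted p from limma over all features was below 0.05, and errors are standard errors of the model.

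At 1 µM, 10 of the 57 genes fell and 7 rose, 29.8% in all against 40.8% of all features. The falls were 17.5% of the genes and 21.2% of all features, and the rises 12.3% of the genes and 19.6% of all features. The median log2 fold change was -0.03 in both sets. At both doses 13 genes were called, each in the same direction, 6 were called only at 4 µM and 4 only at 1 µM, while 34 were called at neither. The 2 comparisons share their untreated arrays. Between the doses, 3 genes were lower and 2 higher at 4 µM than at 1 µM, which is 8.77% against 9.73% of all features (4.84% lower and 4.89% higher). In 11 genes the 4 arrays at 4 µM all lay below the 4 untreated arrays (19.3%, against 19.5% of all features), and in 3 they all lay above (20% of all features). At 1 µM all 4 arrays lay below the untreated ones in 7 genes (18.2% of all features) and above them in 5 (17.1% of all features). Arrays of 1 dose lay wholly above those of the other in 7.1% of all features and wholly below in 6.47%, which is the background for the separations between doses given below.

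**Figure D1:**
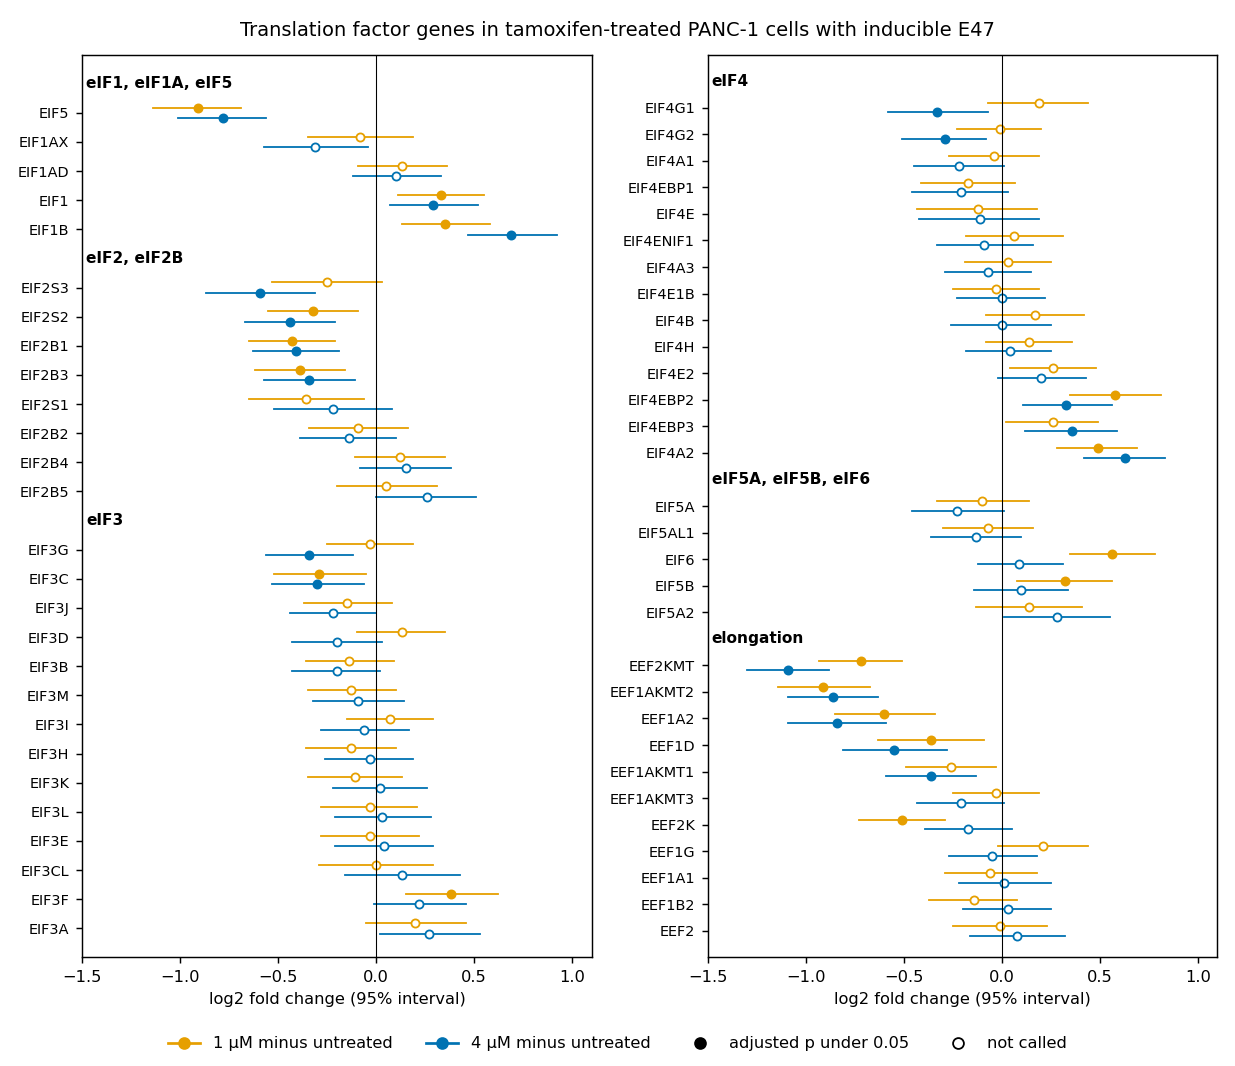
Log2 fold changes with 95% intervals for the 57 tested genes, grouped by role, at 4 µM and at 1 µM tamoxifen against untreated cells; filled points were called at an adjusted p below 0.05. EEF2KMT lies farthest to the left at -1.09 (4 µM) and EIF1B farthest to the right at 0.69, and most of the eIF3 points lie close to 0.

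Elongation factors and the enzymes that modify them held the largest falls. At each dose 5 of the 11 genes fell and the other 6 were not called, so that 45.5% were called against 42.6% (4 µM) and 40.8% (1 µM) of all features. Falls alone made up 21.1% and 21.2% of all features. The class had a median log2 fold change of -0.21 at 4 µM and -0.26 at 1 µM. Those that fell at 4 µM were EEF2KMT, EEF1AKMT2, EEF1AKMT1, EEF1A2 and EEF1D. Lower signal in a culture could come from fewer cells expressing a gene or from less RNA per cell, which cannot be told apart here.

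EEF2KMT is a methyltransferase that modifies a lysine of eEF2. It measured 9.46, 9.55, 9.44 and 9.65 on the untreated arrays, 8.78, 8.76, 8.80 and 8.88 at 1 µM, and 8.47, 8.36, 8.49 and 8.43 at 4 µM. The groups did not overlap and the 4 arrays of each lay close together. The log2 fold change was -1.09 ± 0.10 at 4 µM (adjusted p = 7.41e-11) and -0.72 ± 0.10 at 1 µM (adjusted p = 5.42e-07), so that the 4 µM signal was 2.13 times lower than the untreated one. Between doses it was lower by a log2 difference of -0.37 ± 0.10 (adjusted p = 0.0189). That last call was lost without the second array at 4 µM or the fourth at 1 µM, with an adjusted p of at most 0.0684.

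The probes of EEF2KMT did not all move one way. Besides the brightest probe above, 2 others were lower at 4 µM, by -0.89 and -0.53 on the log2 scale, while the dimmest, with a mean of 7.07 against a background threshold of 6.86, was higher by 0.72 (adjusted p = 2.73e-05). This was the only one of the 57 genes with probes called in opposite directions. Between the doses, the 2 others had -0.01 (adjusted p = 0.98) and 0.04 (adjusted p = 0.89), and the dimmest was higher at 4 µM by 0.41 (adjusted p = 0.0415). The step down from 1 µM to 4 µM was thus seen on the brightest probe only. When the detected probes were averaged, the fold change was -0.45 at 4 µM and -0.46 at 1 µM, and the difference between doses turned to 0.02 (adjusted p = 0.933). EEF2KMT belongs to the FAM86 family of closely similar genes, and whether a probe also binds these was not tested.

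EEF1AKMT2, a methyltransferase for a lysine of eEF1A, measured 8.56, 8.46, 8.51 and 8.28 on the untreated arrays, 7.77, 7.70, 7.32 and 7.40 at 1 µM, and 7.66, 7.65, 7.54 and 7.52 at 4 µM. Both doses lay wholly below the untreated arrays and overlapped each other. It fell by 0.86 ± 0.11 on the log2 scale at 4 µM (adjusted p = 1.11e-07) and by 0.91 ± 0.11 at 1 µM (adjusted p = 4.95e-08). EEF1AKMT1, which methylates another lysine of eEF1A, fell by 0.36 ± 0.11 at 4 µM (adjusted p = 0.0107), with -0.26 ± 0.11 at 1 µM (adjusted p = 0.0676). EEF1AKMT3 had fold changes of -0.21 and -0.03 on the log2 scale at 4 µM and 1 µM and was not called.

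The eEF1A paralogs encode the same activity. EEF1A2, known as the form of muscle and neurons and also found in some tumours, measured 12.27, 12.69, 12.27 and 12.51 in untreated cells, 11.87, 12.20, 11.53 and 11.75 at 1 µM, and 11.60, 11.57, 11.56 and 11.64 at 4 µM. All treated arrays lay below all untreated ones. Its log2 fold change was -0.84 ± 0.12 at 4 µM (adjusted p = 8.06e-07) and -0.60 ± 0.12 at 1 µM (adjusted p = 0.000175), with no call between doses (-0.24, adjusted p = 0.241). EEF1A1, the widely expressed form, measured 15.96, 15.66, 15.66 and 15.70 untreated, 15.58, 15.58, 15.96 and 15.64 at 1 µM, and 15.73, 15.96, 15.61 and 15.73 at 4 µM. This probe gave the top signal of the array, 15.96, on 3 arrays and ranked 10th or higher on all, so it sits near the ceiling of the scale and no change is read from it. EEF1A1 probes with means of 15.68 and 15.65 were about as bright and were not called at either dose. The dimmest probe of EEF1A1, with a mean of 8.96, was lower by -0.39 at 4 µM (adjusted p = 0.0117) and by -0.69 at 1 µM (adjusted p = 2.81e-05). The paralogs' difference in response was not tested.

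The eEF1B complex returns eEF1A to its GTP form. EEF1D, 1 of its exchange subunits, measured 12.84, 12.61, 12.79 and 12.72 in untreated cells, 11.93, 12.80, 12.54 and 12.25 at 1 µM, and 12.20, 12.05, 12.26 and 12.27 at 4 µM. Signals at 4 µM lay below every untreated array, whereas at 1 µM array 2 lay within the untreated range and the other 3 below it. It fell by 0.55 ± 0.13 at 4 µM (adjusted p = 0.000819), and its second probe by 0.66 (adjusted p = 3.95e-05). At 1 µM the change was -0.36 ± 0.13 (adjusted p = 0.026), a call that was lost without array 1 or 4 at 1 µM or untreated array 1 or 3 (adjusted p from 0.0573 to 0.196), with -0.21 as the smallest change, without array 1 at 1 µM. EEF1B2, the other exchange subunit, had 0.03 and -0.14 at 4 µM and 1 µM by its brightest probe, and EEF1G, which holds the complex together, had -0.05 and 0.21, none of them called. Among the 5 detected probes of EEF1B2, a dimmer probe was called lower at 4 µM (-0.30, adjusted p = 0.0495). Another was called lower at 1 µM (-0.31, adjusted p = 0.037), and none was called higher.

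EEF2, the translocase, measured 13.26, 13.47, 13.50 and 13.38 in untreated cells, 13.59, 13.30, 13.55 and 13.14 at 1 µM, and 13.33, 13.55, 13.69 and 13.36 at 4 µM. No group stood apart, and the fold change was 0.08 ± 0.12 at 4 µM (adjusted p = 0.633) and -0.01 at 1 µM (adjusted p = 0.974). EEF2K, the kinase that inhibits eEF2, measured 10.23, 10.34, 10.31 and 10.18 untreated, 9.73, 9.91, 9.81 and 9.57 at 1 µM, and 10.07, 10.25, 10.01 and 10.04 at 4 µM. It was lowest at 1 µM, where all arrays lay below those of both other groups. The log2 fold change was -0.51 ± 0.11 at 1 µM (adjusted p = 0.000207) and -0.17 at 4 µM (adjusted p = 0.206), and the 4 µM level was above that at 1 µM by 0.34 ± 0.11 (adjusted p = 0.0407). The call between doses was lost without any 1 of the arrays at 4 µM or without array 1, 3 or 4 at 1 µM (adjusted p from 0.052 to 0.15).

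**Figure D2:**
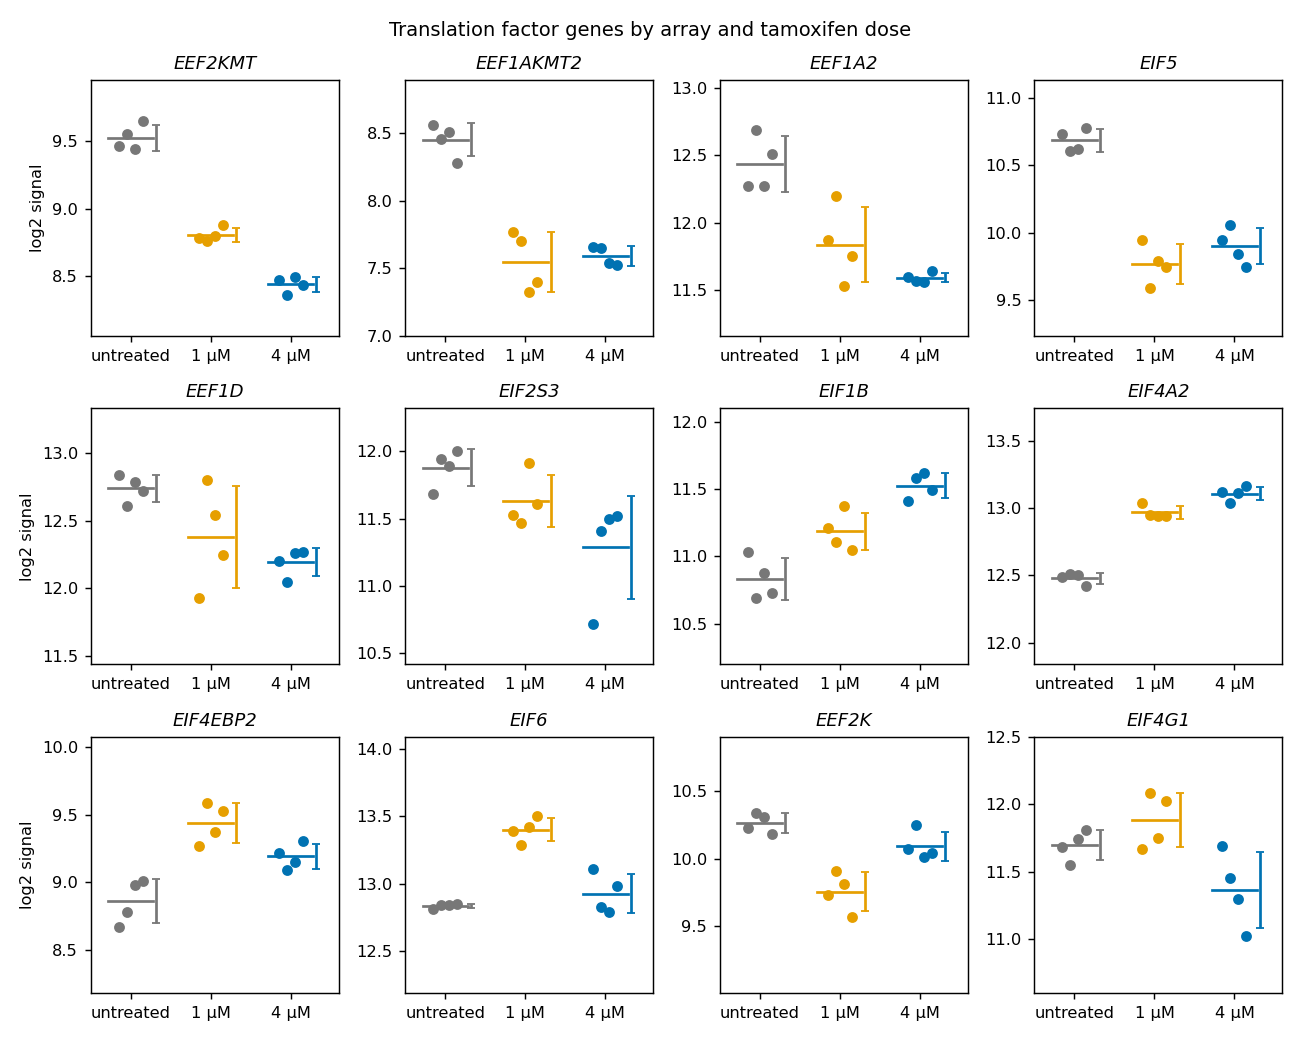
Log2 signal of 12 translation factor genes on each array, by dose, with group means and SD bars (n = 4 a group). EEF2KMT, shown by its brightest probe, steps down from untreated to 4 µM. EEF1AKMT2 and EIF5 lie lower at both doses, and EIF6 and EEF2K stand apart at 1 µM.

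EIF1, EIF1B, EIF1AX, EIF1AD and EIF5 were grouped by symbol prefix under scanning and start codon choice. Of these 5 genes, 1 fell and 2 rose at each dose. That is 60% called, against 42.6% (4 µM) and 40.8% (1 µM) of all features. EIF5, the partner that makes eIF2 hydrolyse its GTP, fell at both doses, while EIF1 and its paralog EIF1B, which guard the accuracy of start codon choice, rose. EIF5 measured 10.73, 10.61, 10.62 and 10.78 in untreated cells, 9.95, 9.59, 9.79 and 9.75 at 1 µM, and 9.95, 10.06, 9.84 and 9.75 at 4 µM. Both treated groups lay wholly below the untreated arrays and overlapped each other. Its log2 fold change was -0.78 ± 0.11 at 4 µM (adjusted p = 3.15e-07) and -0.91 ± 0.11 at 1 µM (adjusted p = 1.89e-08). The other probes of EIF5, with means of 7.06 and 6.78 near the background threshold, changed by -0.17 (adjusted p = 0.278) and -0.09 at 4 µM, and the mean of its probes by -0.35.

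EIF1B measured 11.03, 10.69, 10.88 and 10.73 in untreated cells, 11.21, 11.11, 11.37 and 11.05 at 1 µM, and 11.41, 11.58, 11.62 and 11.49 at 4 µM. The arrays were ordered by dose, without overlap between any 2 groups. The log2 fold change was 0.69 ± 0.11 at 4 µM (adjusted p = 3.32e-06) and 0.35 ± 0.11 at 1 µM (adjusted p = 0.01). Between doses the difference was 0.34 ± 0.11 (adjusted p = 0.0468). Without array 3 at 1 µM the call at that dose was lost (adjusted p = 0.0503), and the call between doses was lost without array 2, 3 or 4 at 4 µM, array 1, 2 or 4 at 1 µM or untreated array 3 (adjusted p from 0.0525 to 0.141).

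EIF1 measured 13.23, 13.05, 13.03 and 13.05 in untreated cells, 13.45, 13.25, 13.38 and 13.60 at 1 µM, and 13.48, 13.42, 13.45 and 13.18 at 4 µM. All 4 arrays at 1 µM lay above the untreated ones, and at 4 µM array 4 lay below untreated array 1. Its fold change was 0.29 ± 0.11 at 4 µM (adjusted p = 0.0301) and 0.33 ± 0.11 at 1 µM (adjusted p = 0.0157). The call at 4 µM was lost without array 1, 2 or 3 at that dose or untreated array 2, 3 or 4 (adjusted p from 0.0579 to 0.0811), and that at 1 µM without array 4 at that dose (adjusted p = 0.0648). EIF1AX, which encodes eIF1A, a partner of eIF1 on the scanning ribosome, measured 9.49, 9.51, 9.93 and 9.39 untreated, 9.60, 9.58, 9.46 and 9.35 at 1 µM, and 8.99, 9.03, 9.59 and 9.48 at 4 µM. Arrays 1 and 2 at 4 µM lay below the rest, and the change of -0.31 ± 0.13 was not called (adjusted p = 0.061). EIF1AD had 0.10 and 0.13 at 4 µM and 1 µM.

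Of the 8 genes for eIF2 and its exchange factor eIF2B, 4 fell at 4 µM and 3 at 1 µM, and the rest were not called. These are 50% and 37.5% called, against 42.6% and 40.8% of all features, while falls alone were 21.1% and 21.2% of all features. The median log2 fold change was -0.28 at each dose, against -0.03 for all features. EIF2S3 encodes the subunit of eIF2 that binds GTP and the initiator tRNA. It measured 11.68, 11.94, 11.89 and 12 in untreated cells, 11.53, 11.47, 11.91 and 11.61 at 1 µM, and 10.72, 11.41, 11.50 and 11.52 at 4 µM. The 4 µM arrays all lay below the untreated ones, array 1 by far the lowest, and the 1 µM arrays overlapped the untreated range. It fell by 0.59 ± 0.14 at 4 µM (adjusted p = 0.000615), with -0.25 ± 0.14 at 1 µM (adjusted p = 0.154).

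EIF2S2, the beta subunit, measured 8.11, 8, 8.41 and 7.95 in untreated cells, 7.72, 7.67, 7.82 and 7.98 at 1 µM, and 7.78, 7.58, 7.64 and 7.70 at 4 µM. Its 4 µM arrays were all below the untreated ones, and 1 µM array 4 overlapped them. The fold change was -0.44 ± 0.11 at 4 µM (adjusted p = 0.00173) and -0.32 ± 0.11 at 1 µM (adjusted p = 0.0243), the second lost without array 1 or 2 at 1 µM or untreated array 3 (adjusted p from 0.0625 to 0.144). EIF2S1, the alpha subunit whose phosphorylation lowers initiation under stress, measured 9.71, 9.89, 10.03 and 9.39 in untreated cells, 9.59, 9.37, 9.71 and 8.93 at 1 µM, and 9.24, 9.75, 9.42 and 9.74 at 4 µM. The 3 groups overlapped, with -0.22 ± 0.15 at 4 µM (adjusted p = 0.249) and -0.36 ± 0.15 at 1 µM (adjusted p = 0.0517).

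In eIF2B, the subunits EIF2B1 and EIF2B3 fell at both doses. EIF2B1, of the regulatory part that senses phosphorylated eIF2, measured 10.70, 10.81, 10.67 and 10.82 in untreated cells, 10.17, 10.40, 10.46 and 10.23 at 1 µM, and 10.31, 10.33, 10.21 and 10.49 at 4 µM. Every treated array lay below every untreated one. The fold change was -0.41 ± 0.11 at 4 µM (adjusted p = 0.00205) and -0.43 ± 0.11 at 1 µM (adjusted p = 0.00136). EIF2B3, of the catalytic part, changed by -0.34 ± 0.11 at 4 µM (adjusted p = 0.0142) and by -0.39 ± 0.11 at 1 µM (adjusted p = 0.00542), and its call at 4 µM was lost without array 1 at that dose or untreated array 4 (adjusted p of at most 0.082). EIF2B5, the subunit that catalyses the exchange, had 0.26 at 4 µM (adjusted p = 0.0978) and 0.05 at 1 µM. EIF2B4 and EIF2B2, also of the regulatory part, had 0.15 and -0.14 at 4 µM.

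Most genes of eIF3, the large scaffold on the small subunit that ties the other factors together, were not called. At 4 µM 2 of 14 fell, and at 1 µM 1 fell and 1 rose (14.3% called at each dose, against 42.6% and 40.8% of all features), with medians of -0.04 and -0.03. EIF3G, a subunit with an RNA-binding domain, fell by 0.34 ± 0.11 at 4 µM (adjusted p = 0.00995), its 4 arrays at 11.85, 11.79, 11.51 and 11.59 against 11.98, 12.13, 12.07 and 11.93 untreated. No 4 µM array reached the untreated ones, and the change at 1 µM was -0.03. EIF3F rose by 0.38 ± 0.12 at 1 µM (adjusted p = 0.00766), with array ranges that overlapped, and had 0.22 at 4 µM (adjusted p = 0.12).

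EIF3C changed by -0.30 ± 0.12 at 4 µM (adjusted p = 0.0404) and by -0.29 ± 0.12 at 1 µM (adjusted p = 0.0498), and both doses overlapped the untreated arrays. The only probe of EIF3C had a mean of 7.23, near the background threshold of 6.86. Its call at 4 µM was lost without array 1, 2 or 4 at that dose or untreated array 1, 2 or 3 (adjusted p from 0.0817 to 0.149). The call at 1 µM was lost without array 1, 3 or 4 at that dose, array 2 or 4 at 4 µM or untreated array 1, 2 or 3 (adjusted p from 0.0517 to 0.153). EIF3CL, a near-identical copy of EIF3C, had 0.13 and 0.00 at 4 µM and 1 µM, and signals of this pair may be mixed between their probes.

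The remaining eIF3 genes lay between -0.22 (EIF3J) and 0.27 (EIF3A) at 4 µM, neither called. EIF3A, the largest core subunit, had 0.27 (adjusted p = 0.0774), and EIF3D, which can bind the cap of certain mRNAs, had -0.20. EIF3B, another core subunit, had -0.20 by its brightest probe, while both dimmer probes were lower, by -0.50 (adjusted p = 0.000667) and -0.53 (adjusted p = 0.000931). The same dimmer probes were lower at 4 µM than at 1 µM by -0.49 (adjusted p = 0.00558) and -0.53 (adjusted p = 0.00718). EIF3E, EIF3H, EIF3I, EIF3K, EIF3L and EIF3M had fold changes between -0.09 (EIF3M) and 0.04 (EIF3E) at 4 µM.

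Among the 14 genes of the eIF4 cap-binding machinery and its binding proteins, 3 rose and 2 fell at 4 µM, and 2 rose at 1 µM, which is 35.7% and 14.3% called against 42.6% and 40.8% of all features. EIF4A2, EIF4EBP2 and EIF4EBP3 rose, and EIF4G1 and EIF4G2 fell. The helicase paralogs were set side by side. EIF4A2 measured 12.49, 12.51, 12.50 and 12.42 in untreated cells, 13.04, 12.95, 12.94 and 12.94 at 1 µM, and 13.12, 13.04, 13.11 and 13.16 at 4 µM. All treated arrays lay above all untreated ones, and replicates were tight. The fold change was 0.63 ± 0.10 at 4 µM (adjusted p = 3.7e-06) and 0.49 ± 0.10 at 1 µM (adjusted p = 0.000176), and the doses were not called apart (0.14, adjusted p = 0.448).

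EIF4A1, the main helicase of the cap complex, measured 14.38, 14.72, 14.71 and 14.77 in untreated cells, 14.43, 14.66, 14.63 and 14.69 at 1 µM, and 14.59, 14.45, 14.35 and 14.31 at 4 µM. Untreated array 1 lay among the 4 µM arrays, and the change of -0.22 ± 0.11 was not called (adjusted p = 0.121). Without untreated array 1, or with its probes averaged, EIF4A1 was called lower at 4 µM (lowest adjusted p 0.0342). At 1 µM it had -0.04 (adjusted p = 0.802). Its dimmer probe had -0.27 at 4 µM (adjusted p = 0.0574) and was called lower at 1 µM by -0.31 (adjusted p = 0.0299). EIF4A3, which sits in the exon junction complex, measured 12.90, 13.03, 13.13 and 13.13 untreated, 13.05, 13.03, 13.14 and 13.10 at 1 µM, and 13.20, 12.92, 12.95 and 12.84 at 4 µM. Its groups overlapped, with -0.07 at 4 µM and 0.03 at 1 µM. EIF4B and EIF4H, cofactors of the helicase, had 0.00 and 0.04 at 4 µM.

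**Figure D3:**
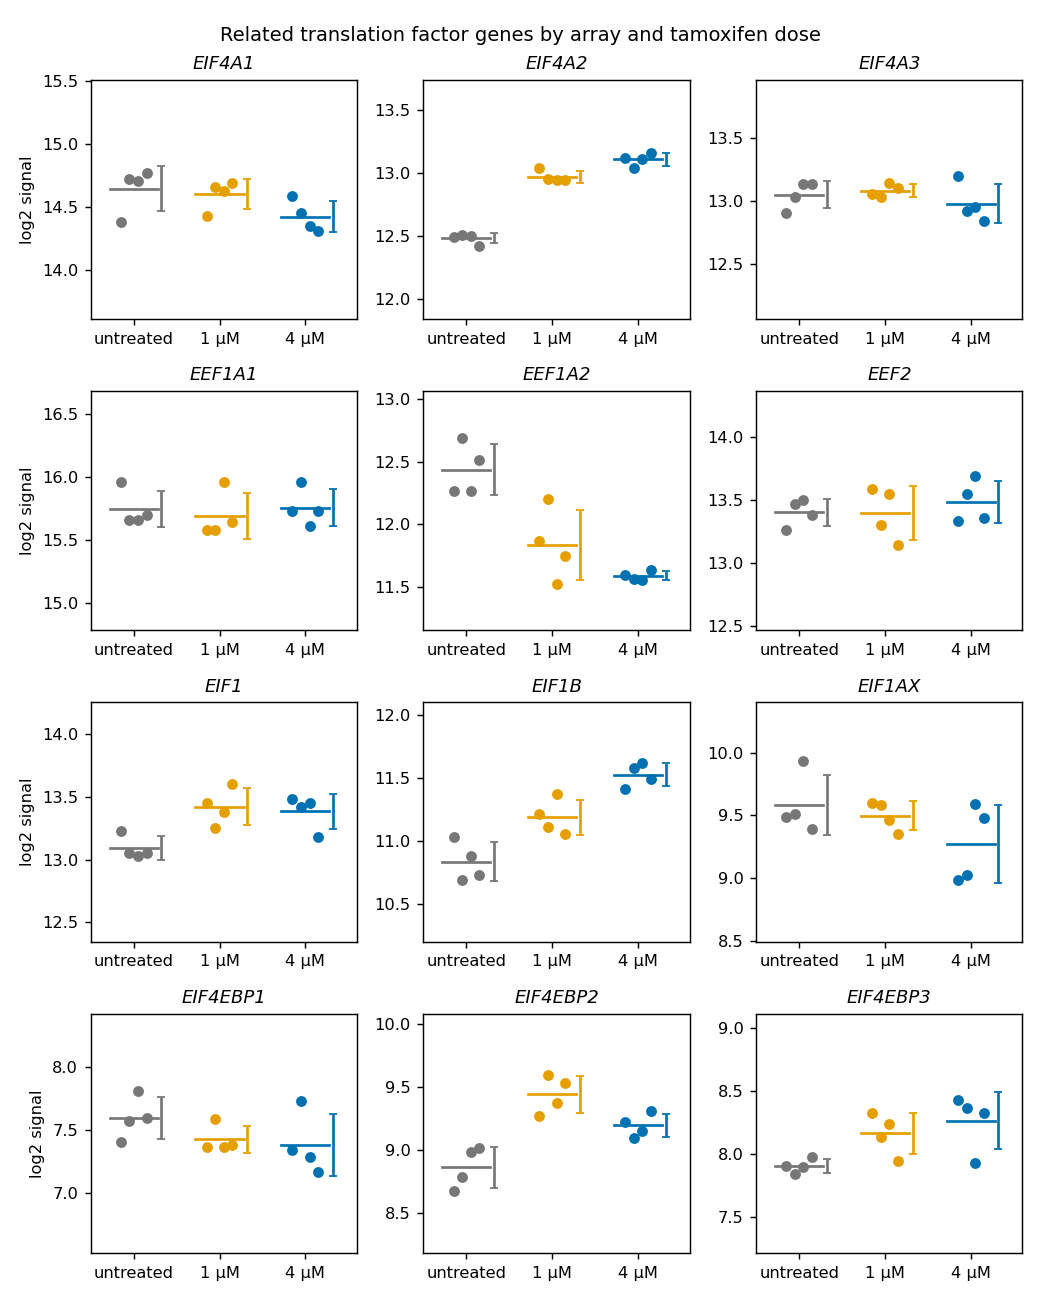
Log2 signal on each array by dose for related genes (EIF4A, EEF1A and EEF2, EIF1, and EIF4EBP), with group means and SD bars (n = 4 a group). EIF4A2 lies higher on every treated array while EIF4A1 and EIF4A3 overlap between groups, EEF1A2 lies lower, and EEF1A1 lies near the ceiling of the scale.

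The 4E-binding proteins hold back eIF4E until mTORC1 phosphorylates them. EIF4EBP2 measured 8.67, 8.78, 8.98 and 9.01 in untreated cells, 9.27, 9.59, 9.37 and 9.53 at 1 µM, and 9.22, 9.09, 9.15 and 9.31 at 4 µM. All treated arrays were above the untreated ones, with 1 µM the highest. It rose by 0.33 ± 0.11 at 4 µM (adjusted p = 0.0155) and by 0.58 ± 0.11 at 1 µM (adjusted p = 6.92e-05), with -0.25 between the doses (adjusted p = 0.178). The 4 µM call was lost without array 4 at that dose or untreated array 1 (adjusted p of at most 0.0738).

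EIF4EBP3 measured 7.91, 7.84, 7.90 and 7.98 in untreated cells, 8.33, 8.14, 8.24 and 7.95 at 1 µM, and 8.43, 8.37, 7.93 and 8.33 at 4 µM. At each dose 1 array fell within the untreated range and the other 3 lay above it. The change was 0.36 ± 0.12 at 4 µM (adjusted p = 0.0131, lost at 0.0545 without array 1 at that dose) and 0.26 ± 0.12 at 1 µM (adjusted p = 0.0795). EIF4EBP1 measured 7.41, 7.57, 7.81 and 7.60 untreated, 7.37, 7.59, 7.37 and 7.38 at 1 µM, and 7.34, 7.73, 7.29 and 7.17 at 4 µM. Its groups overlapped and it was not called, with -0.21 at 4 µM (adjusted p = 0.156).

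EIF4G1, the scaffold that joins the cap-binding protein to the helicase and eIF3, measured 11.68, 11.55, 11.74 and 11.81 in untreated cells, 11.67, 12.08, 11.75 and 12.02 at 1 µM, and 11.69, 11.45, 11.30 and 11.02 at 4 µM. The 4 µM arrays ran from within the untreated range to well below it, and the 1 µM arrays from within it to above. Its difference between doses, -0.51 ± 0.13, was called (adjusted p = 0.00681), though not without array 4 at 4 µM (adjusted p = 0.054). Against untreated cells it changed by -0.33 ± 0.13 at 4 µM (adjusted p = 0.0336) and by 0.19 at 1 µM (adjusted p = 0.256). The 4 µM call was lost without array 3 or 4 at that dose or untreated array 1, 3 or 4 (adjusted p from 0.0559 to 0.195), with -0.22 as the smallest change, without array 4 at 4 µM.

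EIF4G2, a relative of EIF4G1 that does not bind eIF4E, measured 15.03, 14.82, 14.97 and 15.05 in untreated cells, 14.91, 14.96, 14.92 and 15.03 at 1 µM, and 14.71, 14.55, 14.62 and 14.83 at 4 µM. Only array 4 at 4 µM reached the untreated range. The fold change was -0.29 ± 0.11 at 4 µM (adjusted p = 0.0255) and -0.01 at 1 µM. The call was lost without array 2 or 3 at 4 µM or untreated array 1 or 4 (adjusted p from 0.0627 to 0.0909). The other probes of EIF4G2 were lower at 4 µM by -0.39 (adjusted p = 0.00971) and -0.54 (adjusted p = 0.000416). At 1 µM the dimmest probe, with a mean of 12.38, was called lower too (-0.35, adjusted p = 0.0221). The remaining probe was not called at 1 µM (-0.14, adjusted p = 0.381).

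EIF4E, the cap-binding protein, measured 7.24, 7.09, 7.80 and 7.66 in untreated cells, 7.31, 7.05, 7.42 and 7.52 at 1 µM, and 6.87, 7.24, 7.62 and 7.60 at 4 µM. The arrays of each group were widely spread near background, with -0.11 at 4 µM and -0.12 at 1 µM. EIF4E2, a homolog that binds the cap without recruiting the scaffold, measured 11.62, 11.81, 11.70 and 11.38 untreated, 11.88, 11.83, 11.81 and 12.03 at 1 µM, and 11.75, 11.81, 11.90 and 11.86 at 4 µM. Treated arrays lay above all but the highest untreated one, and neither 0.26 at 1 µM (adjusted p = 0.0575) nor 0.20 at 4 µM (adjusted p = 0.139) was called. EIF4ENIF1, which carries eIF4E into the nucleus, had -0.09 at 4 µM, and EIF4E1B was above background on 5 of 12 arrays.

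Of the 5 genes of subunit joining and eIF5A, EIF6 and EIF5B rose at 1 µM. That is 40% called, against 40.8% of all features. At 4 µM none was called, against 42.6%. EIF6 keeps the ribosomal subunits apart until the large one is mature. It measured 12.81, 12.84, 12.84 and 12.85 in untreated cells, 13.39, 13.29, 13.42 and 13.50 at 1 µM, and 13.11, 12.83, 12.79 and 12.98 at 4 µM. The 1 µM arrays lay above both other groups, which overlapped. It rose by 0.56 ± 0.11 at 1 µM (adjusted p = 4.42e-05), had 0.09 at 4 µM (adjusted p = 0.528), and was lower at 4 µM than at 1 µM by -0.47 ± 0.11 (adjusted p = 0.00312). A dimmer probe of EIF6, with a mean of 7.60, was lower at 4 µM than untreated by -0.49 (adjusted p = 0.000963), and with both probes averaged the change at 1 µM was 0.19 (adjusted p = 0.121).

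EIF5B, the GTPase that joins the subunits, rose by 0.32 ± 0.12 at 1 µM (adjusted p = 0.0268) and had 0.10 at 4 µM (adjusted p = 0.536). Its arrays overlapped the untreated ones, and the call was lost without array 2 or 4 at 1 µM or untreated array 1, 2 or 3 (adjusted p from 0.0522 to 0.117). EIF5A, which eases peptide bond formation at difficult residues and carries hypusine, measured 11.87, 11.91, 12.12 and 11.95 untreated, 11.82, 12.16, 11.69 and 11.80 at 1 µM, and 11.77, 11.60, 11.91 and 11.67 at 4 µM. Its paralog EIF5A2 measured 8.74, 8.87, 8.84 and 8.64 untreated, 9.21, 8.42, 8.81 and 9.22 at 1 µM, and 8.87, 9.05, 9.14 and 9.14 at 4 µM. The 4 µM arrays of EIF5A lay in or below the untreated range and those of EIF5A2 at or above its top, and neither -0.23 (adjusted p = 0.112) nor 0.28 (adjusted p = 0.0956) was called. EIF5AL1, a near-identical copy of EIF5A, was above background on 4 of 12 arrays and on 0 of 4 at 4 µM, so no fold change is given.

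Calls depended on the probe for several genes. Of the 57 genes, 17 had more than 1 detected probe, and in 7 of these the probes differed in their call at 4 µM, namely EEF1A1, EEF1B2, EEF2KMT, EIF3B, EIF4G1, EIF5 and EIF6. For EIF4G1 the second probe had -0.14 at 4 µM (adjusted p = 0.405) and, like the first, was lower at 4 µM than at 1 µM, by -0.39 (adjusted p = 0.0462). Which transcripts each probe binds was not tested.

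**Figure D4:**
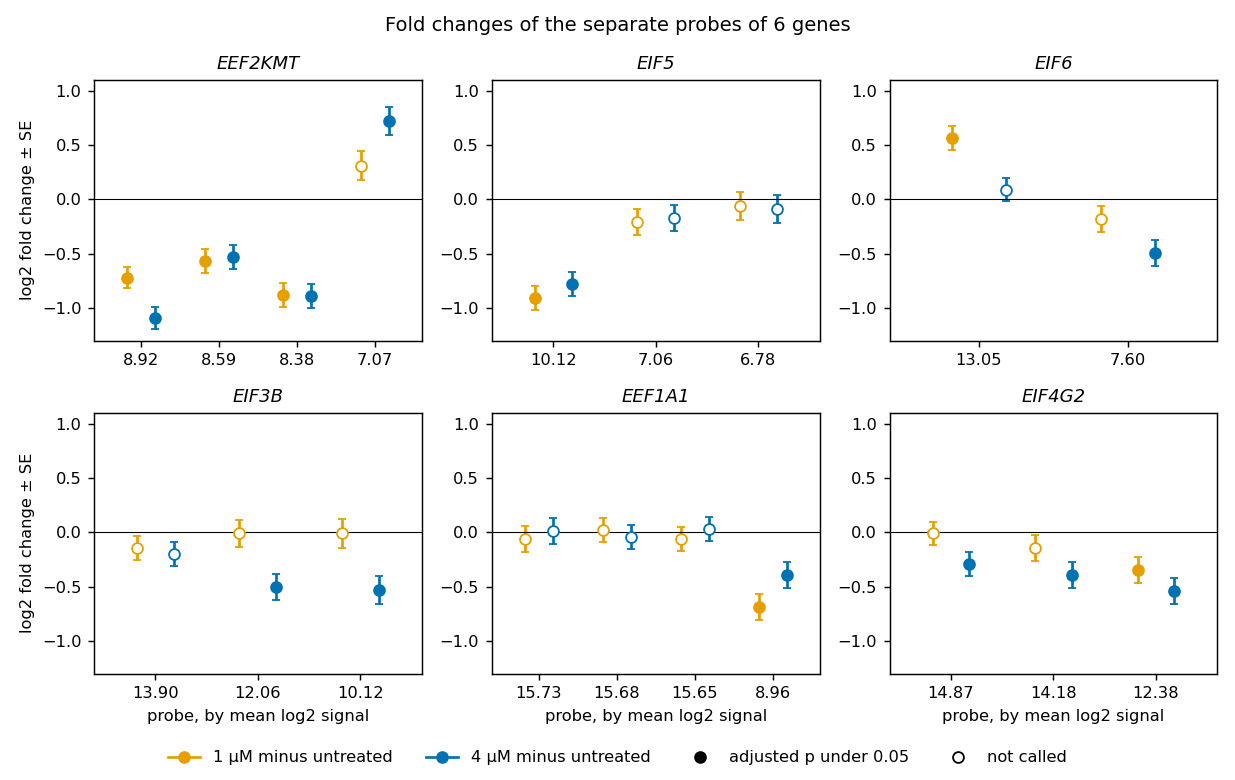
Log2 fold change with SE for each detected probe of 6 genes, ordered from the brightest probe, at 1 µM and 4 µM against untreated cells; filled points were called. In EEF2KMT the dimmest probe (mean 7.07) lies at 0.72 at 4 µM while the other probes lie below 0, and in EIF3B both dimmer probes lie lower than the brightest at 4 µM.

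The 10 genes with a TOP start included 1 rise (EIF4A2) and 1 fall (EIF2S3) at 4 µM, with a median log2 fold change of 0.02 and a range of -0.59 to 0.63. Among the 34 genes with a window and no TOP start, 4 rose and 7 fell, with a median of -0.1. At 1 µM the TOP genes had 2 rises, EIF3F and EIF4A2, and a median of -0.03. The others had 5 rises and 6 falls with a median of 0.01. Of all features, 21.5% rose and 21.1% fell at 4 µM, and 19.6% rose and 21.2% fell at 1 µM. Untreated means ran from 11.88 to 15.74 in the TOP genes and from 6.88 to 14.97 in the others. The sets therefore also differ in signal level, and the TOP genes include EEF1A1, from which no change is read. Arrays measure transcript level and not the translation that the TOP motif governs.

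Genes outside the symbol rule that act on these factors were counted in the same fit. Their lists were chosen with earlier results of these data known, so the shares called are a description and were not tested. The kinases and regulators of mTORC1 and of the cap complex were called in 9 of 15 at 4 µM, 5 higher and 4 lower, and in 12 of 15 at 1 µM, 8 higher and 4 lower. These shares, 60% and 80%, stood beside 42.6% and 40.8% of all features. DDIT4, a stress-induced inhibitor of mTORC1, rose by 2.30 at 4 µM and by 2.13 at 1 µM on the log2 scale. TSC1, a subunit of the complex that switches off RHEB, rose by 1.07 ± 0.11 at 4 µM (adjusted p = 1.14e-09) and by 0.84 at 1 µM, or by 0.65 at 4 µM over the mean of its probes. MKNK2, a kinase of eIF4E, fell by 1.14 ± 0.12 at 4 µM (adjusted p = 4.02e-10). The other rises at 4 µM were SESN1 (0.72), MTOR (0.43) and TSC2 (0.28), and the other falls RHEB (-0.43), MLST8 (-0.40) and RPS6KB1 (-0.27). The 4 falls at 1 µM were MKNK2 (-0.97), RPS6KB2 (-0.50), MLST8 (-0.36) and RHEB (-0.33). The calls of TSC2, MLST8 and RPS6KB1 at 4 µM were lost without 1 or another array, the adjusted p reaching 0.237, 0.0638 and 0.12 over all settings tried.

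PPP1R15A, the stress-induced subunit that directs a phosphatase to eIF2, measured 10.07, 10.22, 10.25 and 9.95 in untreated cells, 11.50, 11.40, 11.43 and 11.57 at 1 µM, and 11.29, 11.09, 11.17 and 10.90 at 4 µM. Every treated array lay above every untreated one, with 1 µM the highest. It rose by 0.99 ± 0.11 at 4 µM (adjusted p = 3.52e-09) and by 1.35 ± 0.11 at 1 µM (adjusted p = 3.13e-12). It was the only gene called at 4 µM among the 10 eIF2 kinases, phosphatase subunits and alternative carriers of initiator tRNA, whose median was -0.1. At 1 µM MCTS1, of the last kind, was also called (-0.33, adjusted p = 0.0447). Its call was lost without any 1 of 7 arrays, namely array 2 at 4 µM, all 4 at 1 µM and untreated arrays 3 and 4 (adjusted p of at most 0.182 over all settings). The calls are 10% of this list at 4 µM and 20% at 1 µM, against 42.6% and 40.8% of all features.

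PDCD4, an inhibitor of the eIF4A helicase, rose by 0.95 ± 0.12 at 4 µM (adjusted p = 1.94e-08) and by 0.78 at 1 µM, or by 0.63 at 4 µM over the mean of its probes. It was 1 of 2 called at 4 µM among 10 poly(A) and cap partners, which is 20% against 42.6% of all features. At 1 µM 30% of them were called, against 40.8%. These were PDCD4, LARP4B (0.53, adjusted p = 0.000297) and PAIP2 (0.39, adjusted p = 0.00689), all higher. LARP4B had 0.02 at 4 µM and was lower there than at 1 µM by -0.51 (adjusted p = 0.00363). The other called at 4 µM was PABPC1, the poly(A)-binding protein, at -0.27 (adjusted p = 0.0402, reaching 0.651 with its probes averaged). Its call was also lost without array 1, 3 or 4 at 4 µM or untreated array 1, 2 or 4. Of 5 termination and recycling factors, GSPT2 and GSPT1, paralogs of the release factor eRF3, rose by 0.72 (adjusted p = 1.17e-05) and 0.53 (adjusted p = 0.000283) at 4 µM. ABCE1, which splits the ribosome after termination, fell by 0.32 (adjusted p = 0.024). That call was lost without array 1 or 2 at 4 µM or untreated array 3 or 4 (adjusted p of at most 0.117). Of the termination and recycling factors, 60% were called at 4 µM and 40% at 1 µM, against 42.6% and 40.8% of all features.

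Enzymes that modify eIF5A and eEF2 fell in 4 of 8 at 4 µM and in 5 of 8 at 1 µM, and the rest were not called. The shares of 50% and 62.5% stood beside 21.1% and 21.2% of all features that fell, and 42.6% and 40.8% called in either direction. This list too was chosen with earlier results known, and its shares were not tested. DHPS, which makes the first step of hypusine on eIF5A, changed by -0.40 at 4 µM (adjusted p = 0.0029). DPH5 and DPH6, of the pathway that makes diphthamide on eEF2, changed by -0.46 (adjusted p = 0.000896) and -0.41 (adjusted p = 0.00334) at 4 µM, and by -0.65 and -0.52 at 1 µM. DPH2, of the same pathway, had -0.30 (adjusted p = 0.0487), a call lost without any 1 of 7 arrays, namely 1, 2 and 3 at 4 µM, 1 at 1 µM and untreated 1, 2 and 3 (adjusted p of at most 0.152 over all settings). At 1 µM the calls of DPH2 (-0.32) and DPH7 (-0.32), of the same pathway, were likewise lost without 1 array.

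**Figure D5:**
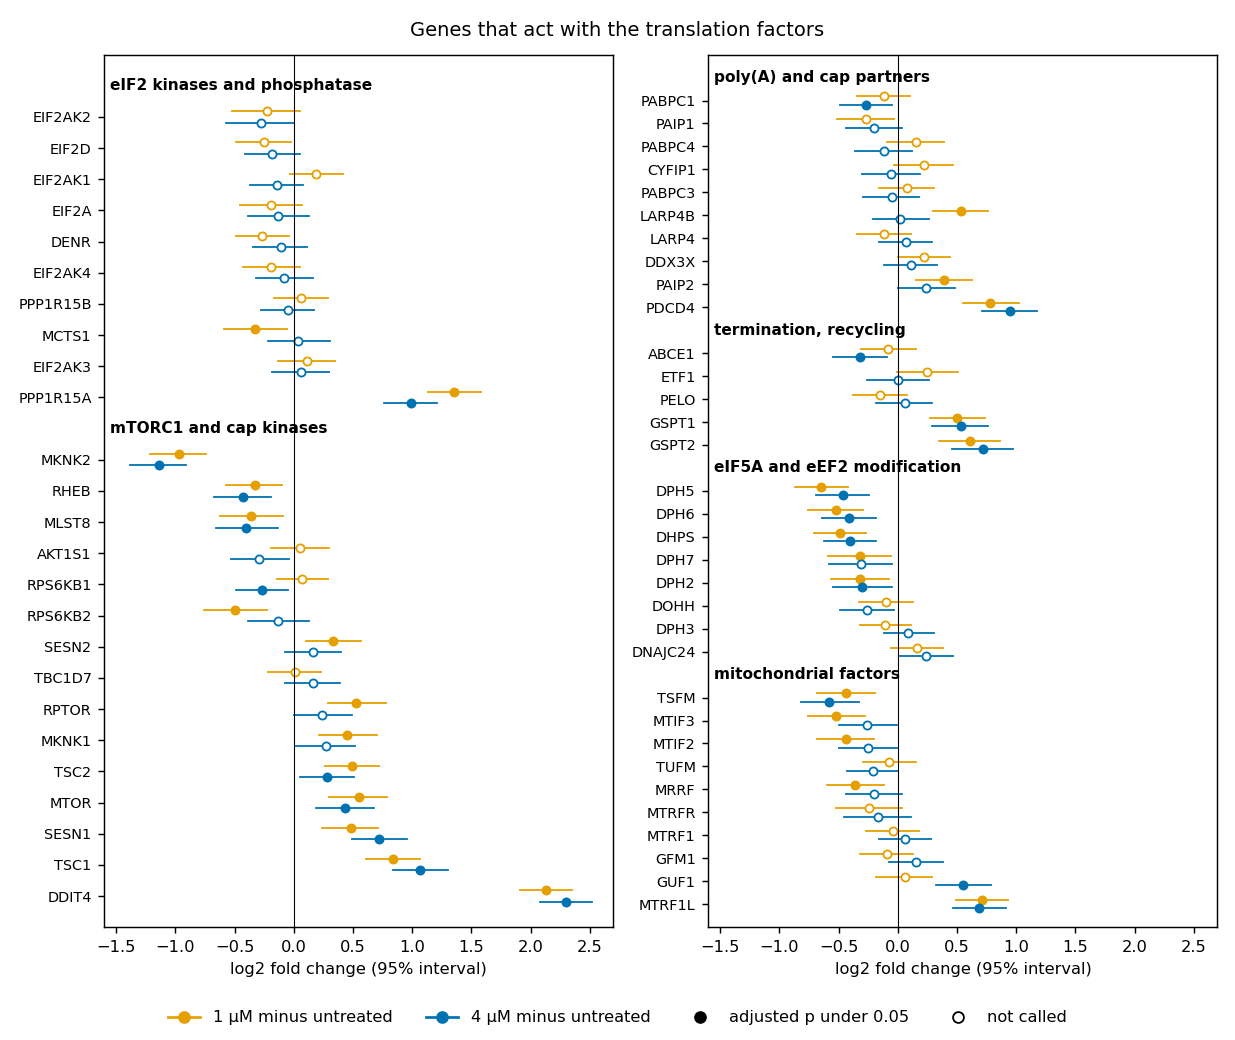
Log2 fold changes with 95% intervals at 4 µM and 1 µM against untreated cells for genes that act with the translation factors, by list; filled points were called. DDIT4 lies farthest to the right at 2.30, and the enzymes that modify eIF5A and eEF2 lie mostly to the left of 0.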

How the data were processed

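Total RNA of 12 samples was measured on Illumina bead arrays. The deposited intensities are on a linear scale, and tested on the values the 12 columns share 1 distribution (sorted columns differ by at most 0.17%), so they had been quantile-normalized between arrays. Per the submitters' processing notes the software was GenomeStudio, with no version or settings stated. Another table of 24 columns, whose names match no sample label, was not used.

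Groups came from the sample titles. Background was set at the mode of the intensities (102.2) with an SD of 16 from its lower side, and a probe was detected when it exceeded the mode by 1.645 SD (128.6, or 6.86 on the log2 scale) on at least 4 of 12 arrays, which left 22541 of 47323 probes. Of all probes 30113 had 1 gene in the annotation supplied, 8 several and 17202 none. Intensities were corrected by normexp on the signals alone (offset 50) and taken to log2. Each gene was represented by its probe of highest mean, and unnamed probes stayed as features, 18223 in all. Group means were fitted with limma 3.58.1 in R 4.3.3 over all arrays (9 residual and 23.9 prior degrees of freedom), two-sided, with Benjamini-Hochberg adjustment over all features and a threshold of 0.05. The procedure was tested on simulated data.

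All 57 tested genes are named. Values on every array are given for the 8 largest called rises and falls at 4 µM (5 genes rose), for genes called between the doses and for a list of paralogs; EIF3G and PPP1R15A were added after their values were seen. Outside the symbol rule, the genes named are those of 6 related lists called at 4 µM, with the 3 largest of a list first, and those behind counts of 5 or fewer. Members and lists were chosen with earlier results of these data known. Arrays of the same replicate number were not treated as pairs, because their residuals correlated at only -0.073 to 0.156 over 12 pairs. Alternatives changed the background correction and its offset, the filter, the probe rule, the normalization, the variance model, array weights, the arrays in the fit and a replicate block, and left out each array. No genome build is given for the probes. Promoter windows are those of RefSeq on GRCh38.p14, and EIF4EBP1, EIF2S2, EEF1AKMT1, EEF2KMT, EEF1AKMT3, EIF3H, EIF3E, EIF3A, EEF1A2, EEF1D, EIF3L, EIF3CL and EIF3G had none in the table.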

Additional observations from a re-analysis of the deposited data

Results flagged for a closer look

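In each group of 4 arrays, an array was listed when its gap to the nearest other array, as a share of the group's range, passed Dixon's 95% critical value, which chance gives in about 1 of 20 groups. Of 84 groups tested, 7 (8.33%) met this. EIF2S3 measured 10.72 in 4 µM replicate 1, with the nearest other array of that dose at 11.41. EEF1A1 measured 15.96 in 1 µM replicate 3, where the other arrays reached at most 15.64. It also measured 15.96 in untreated replicate 1, with the nearest at 15.70. Untreated replicate 1 stood apart for EIF1 as well, at 13.23 with the nearest at 13.05, and for EIF4A1, at 14.38 with the nearest at 14.71. EIF4A2 measured 13.04 in 1 µM replicate 1, and the other arrays of that dose at most 12.95. EIF4EBP1 measured 7.59 in 1 µM replicate 2, and the other arrays of that dose at most 7.38.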

How the results depend on the processing

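Of 41 called fold changes of the translation factor genes, 23 kept their call under every alternative and without any single array, and 18 lost it in at least 1. Of 130 fold changes without a call, 15 passed in at least 1. The counts at 4 µM were 4 to 6 rises and 12 to 14 falls when 1 array was left out, and at 1 µM 6 to 7 rises and 7 to 11 falls. With every probe as a feature, 24 of 85 probes fell at 4 µM and 17 of 85 at 1 µM, where the main fit had 14 and 10 of 57 genes. Between the doses, leaving out 1 array gave 0 to 2 genes higher and 2 to 4 lower at 4 µM. In the same comparison limma called 0 genes higher with a normexp offset of 16, with no detection filter, and with only the 2 groups compared, each with 2 at an unadjusted p under 0.05, and 1 with cyclic loess. Genes lower at 4 µM than at 1 µM numbered 5 with no background correction, 5 with a stricter filter, 6 probes with every probe as a feature, and 6 genes with an intensity trend and robust variances. EEF2KMT changed sign between the doses with its probes averaged (0.02). Its brightest probe had -0.37 between the doses, its dimmest 0.41, and the probes between them -0.01 and 0.04. With the replicate number as a block, 14 genes fell and 5 rose at 4 µM, 11 fell and 7 rose at 1 µM, and 4 were lower and 2 higher between the doses, so the replicate block moved no count by over 1.5 times. The median fold change of all features lay between -0.04 and 0.01 in every setting. The deposited arrays had already been equalised, so this narrow range says little about how robust the results are. The 4 arrays per group and signals near background (such as EIF3C, EIF1AD, EIF4E, EIF4E1B and EIF5AL1) limit what small changes could be seen.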

Other observations

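Mitochondria use their own initiation, elongation and release factors, encoded in the nucleus. Of 10 such genes, 2 rose and 1 fell at 4 µM, and 1 rose and 4 fell at 1 µM (30% and 50% called, against 42.6% and 40.8% of all features), with medians of -0.18 and -0.16 on the log2 scale. MTRF1L, a mitochondrial release factor, rose by 0.69 (adjusted p = 2.29e-06) at 4 µM and by 0.71 at 1 µM, or by 0.45 at either dose over the mean of its probes. GUF1, a GTPase related to the bacterial elongation factor LepA, rose by 0.55 (adjusted p = 0.000185) at 4 µM and had 0.06 at 1 µM. TSFM, the exchange factor of mitochondrial EF-Tu, changed by -0.58 (adjusted p = 0.000166) at 4 µM and by -0.44 at 1 µM. The initiation factors MTIF3 and MTIF2 and the recycling factor MRRF fell at 1 µM, by 0.52, 0.44 and 0.36, and had -0.26, -0.25 and -0.20 at 4 µM, which were not called.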
